A study of Zea mays with 8 samples.

Results

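Among 39423 genes measured in maize endosperm, 21 were expressed in every normal library and very low in every library labelled ded1-ref. They were chosen by their transcript level, as genes with at least 5 TPM in each of the 4 normal libraries and under 1 TPM in each of the 4 ded1-ref libraries. TPM is a length-scaled share of a library: the values of all transcripts in it add up to the same fixed total. Of the 23 genes that met both thresholds, 2 with a known role (yuc, an auxin synthesis gene, and tcrr-1, a transfer cell response regulator) were left out of the 21 by choice. A further gene left out by name, GRMZM2G401328, did not meet the thresholds, since it stood at 4.04 TPM in normal replicate 4. Because the level in both genotypes chose the 21 genes, their difference between genotypes is described here and carries no test.

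The libraries were made from endosperm, the storage tissue of the kernel, at 12 days after pollination in the W22 background. Each of 4 pools from kernels carrying the ded1-ref allele was paired with a pool from normal siblings, and the labels do not say which ded1 genotypes the normal pools hold. The labels give the 4 pairs as biological replicates of pooled kernels, so that a value is the average over a pool. In the sample titles pair 2 carries another leading number than the other pairs. Reads behind each value could be recovered as whole numbers, and totals ran from 10536845 to 20725033 reads per library.

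The endosperm feeds the embryo and, at this age, fills with starch and storage protein. It is made of distinct cell types: a basal transfer layer that takes up sugar from the mother plant, an outer aleurone layer, cells that surround or adjoin the embryo, and the starchy interior. ded1 encodes a transcription factor of the R2R3 MYB family, a large plant family whose members bind DNA and set the activity of other genes. Only 1 of the 21 genes has an informative name in the reference table used here. It is ZCN11, of the phosphatidylethanolamine-binding protein family, which includes plant flowering signals, and in maize its transcript is used as a marker of the endosperm cells adjacent to the scutellum. The table lists 12 of the 21, all as protein-coding genes, and does not list the other 9, so most are described by identifier alone.

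In normal endosperm the 21 genes were of low to moderate level. Their means over the 4 normal libraries ran from 5.99 to 46.7 TPM, with a median of 12.6 TPM. Their ded1-ref means ran from 0.0628 to 0.714 TPM, with a median of 0.312 TPM. The level left in ded1-ref, taken as the ded1-ref mean in percent of the normal mean, had a median of 2.45% and ran from 0.481% for GRMZM2G141320 to 8.47% for GRMZM2G328094. It was under 2% in 10 genes, from 2% to 5% in 4 and above 5% in 7. Over the 7551 genes with at least 5 TPM in each normal library, the median level left was 57.3%, and 412 of them were higher in ded1-ref on this scale.

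**Figure D1:**
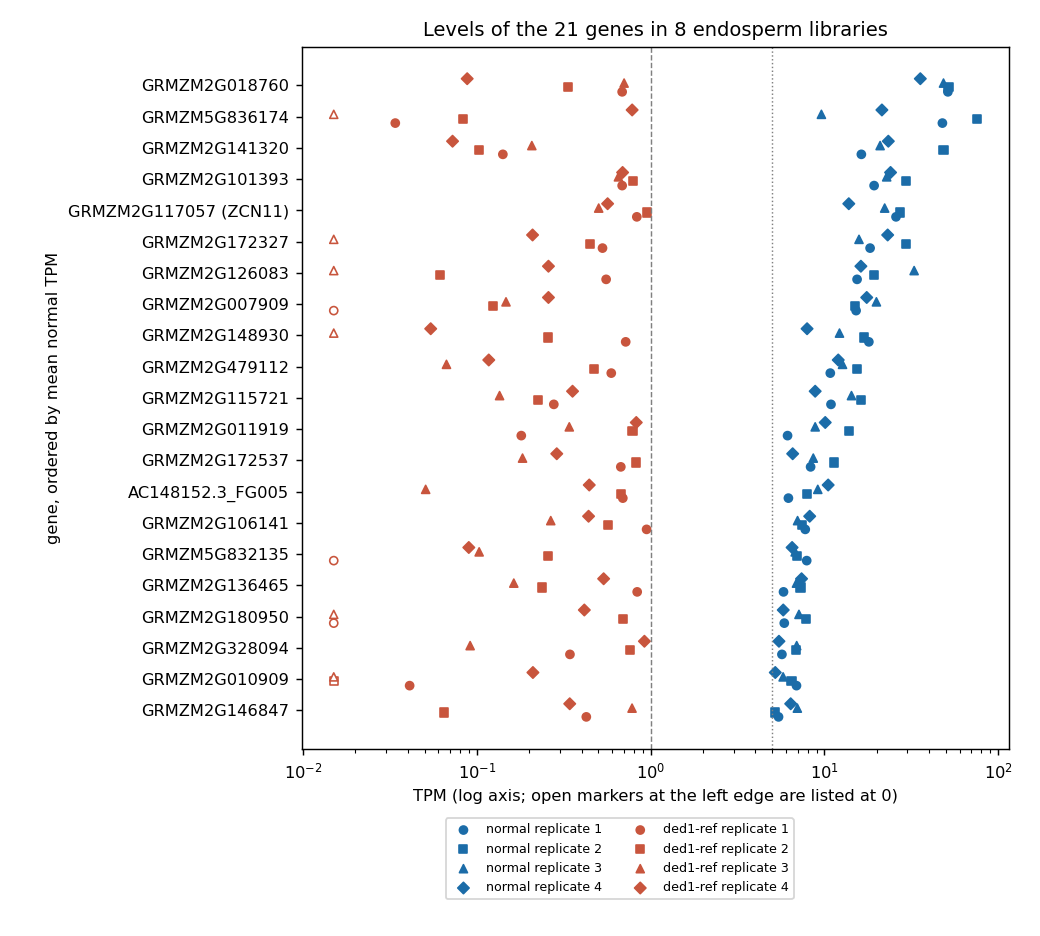
Transcript level in TPM (log axis) of the 21 genes in the 4 normal libraries (blue) and the 4 libraries labelled ded1-ref (red), 1 marker shape per replicate, with open markers for values listed at 0. Dashed and dotted lines mark 1 and 5 TPM, the thresholds of the choice, and the gap between the groups follows from them.

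TPM are shares of a library. On this scale the median of all 13671 tested genes was lower by 0.68 log2 units in ded1-ref (a median change of -0.68). Of them 69.8% were called lower and 3.53% higher by limma. The choice itself used thresholds and no such call: 23 of the 7551 genes with at least 5 TPM in each normal library met both. After division by median-of-ratios factors, which places the median gene near no change (-0.0031), the level left in the 21 genes had a median of 4.28% and ran from 0.942% to 14.1%, against a median of 102% over the 7551 genes. GRMZM2G141320 was lowest and GRMZM2G328094 highest on both scales.

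There were 7 genes with a normal mean of at least 20 TPM. GRMZM2G018760 had the highest normal mean of the 21. It stood at 51.3, 51.7, 48.4 and 35.6 TPM over normal pools 1 to 4, against 0.685, 0.335, 0.703 and 0.0879 TPM over ded1-ref pools 1 to 4, or 46.7 ± 7.58 against 0.453 ± 0.297 TPM (SD, n = 4 per group). In ded1-ref the 4 libraries together held 22 reads of this gene, against 1605 in the normal libraries.

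GRMZM5G836174 was the most variable of the 21 in normal endosperm. Its normal values were 47.7, 75.1, 9.60 and 21.4 TPM in replicates 1 to 4, so that the highest library held 7.82 times the level of the lowest. In ded1-ref it stood at 0.0339, 0.0827, 0 and 0.782 TPM. Replicate 4 thus carried 18 of the 21 reads found over the ded1-ref libraries. The mean was 38.4 ± 29.2 TPM in normal and 0.225 ± 0.373 TPM in ded1-ref (SD, n = 4 per group), and in the third pair, where normal endosperm was lowest, no read of the gene was found in ded1-ref.

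GRMZM2G141320 kept the smallest share of its normal level. It stood at 16.3, 48.4, 20.9 and 23.3 TPM over normal pools 1 to 4, against 0.141, 0.103, 0.207 and 0.0724 TPM in ded1-ref. The ratio of the means was 208-fold, or 106-fold after scaling to the median gene. Normal replicate 2 stood above the other normal libraries, while all 4 ded1-ref values were within a narrow range near the level of a few reads, 2 to 5 per library.

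GRMZM2G101393 was the most even of the 21 in ded1-ref. Its values were 19.3, 29.3, 22.8 and 24 TPM in normal replicates 1 to 4 and 0.685, 0.791, 0.652 and 0.689 TPM in ded1-ref. With 125 reads over the ded1-ref libraries, more than any other of the 21, it was measured above 0 in each. The level left was 3.55%, 2.70%, 2.86% and 2.87% in pairs 1 to 4, so that low transcript remained at a like share in every pair.

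ZCN11 (GRMZM2G117057) also kept a low and even level. It stood at 25.8, 27.3, 22.2 and 13.8 TPM over normal pools 1 to 4, against 0.832, 0.956, 0.502 and 0.565 TPM in ded1-ref, or 22.3 ± 6.03 against 0.714 ± 0.215 TPM (SD, n = 4 per group). The level left was 3.23%, 3.50%, 2.27% and 4.08% in pairs 1 to 4. All of its TPM belonged to transcript row 01, and row 02 was listed at 0 in all 8 libraries.

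Of 26 names of the ZCN family, a list written by name after the data were known, 17 genes could be matched, and the unmatched names were not read here. Apart from ZCN11 the matched genes were low, and 7 of the 17 were listed at 0 in all 8 libraries. ZCN8 (GRMZM2G179264), known in maize as a floral activator, stood at 2.08, 1.38, 1.13 and 1.21 TPM over the normal pools, against 0.613, 0.0748, 0 and 0.157 TPM in ded1-ref. ZCN8 reached the level for a test (1 TPM in 4 libraries) through the normal pools alone. A call on it was thus bound to be a fall, and its p is not given. ZCN9 stood at 0.213 and 0.162 TPM, and the 2 identifiers that carry the name ZCN10 stood at no more than 0.0856 TPM in either genotype. At these levels no difference could be seen.

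GRMZM2G172327 and GRMZM2G126083 complete the group above 20 TPM. The first stood at 18.3, 29.5, 15.8 and 23.1 TPM over normal pools 1 to 4, against 0.528, 0.446, 0 and 0.209 TPM in ded1-ref. The second stood at 15.4, 19.2, 32.8 and 16.2 TPM over the normal pools, against 0.554, 0.0614, 0 and 0.258 TPM in ded1-ref. Both were listed at 0 in ded1-ref replicate 3 alone, where a count of 0 allows up to 0.179 and 0.221 TPM (the worth of 3 reads), and both were highest in ded1-ref replicate 1. For GRMZM2G126083 replicate 3 was at the same time the highest of the normal libraries.

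Another 4 genes had normal means from 10 to 20 TPM. GRMZM2G007909 stood at 15.2, 15.0, 19.9 and 17.5 TPM over normal pools 1 to 4, against 0, 0.123, 0.147 and 0.258 TPM in ded1-ref, which rests on 8 reads over the 4 ded1-ref libraries. It is the only gene of the 21 with transcript in both of its rows: row 02 held 89.5% of the normal mean and row 01 the rest, and row 01 was at 0 in all 4 ded1-ref libraries. GRMZM2G148930 stood at 18.0, 16.8, 12.2 and 7.94 TPM over the normal pools, against 0.718, 0.258, 0 and 0.0542 TPM in ded1-ref. In this gene both genotypes were high in replicate 1 and lower in replicates 3 and 4. GRMZM2G479112 and GRMZM2G115721 had normal means of 12.7 ± 1.97 and 12.6 ± 3.30 TPM and ded1-ref means of 0.312 ± 0.260 and 0.248 ± 0.0922 TPM (SD, n = 4), with reads in each ded1-ref library.

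The 10 genes below a normal mean of 10 TPM lay nearer to the thresholds, and they held all 7 genes with more than 5% of the normal level left. GRMZM2G011919, GRMZM2G172537 and AC148152.3_FG005 had normal means of 9.74, 8.71 and 8.43 TPM and kept 5.47%, 5.64% and 5.51% of them. GRMZM2G106141, GRMZM2G136465, GRMZM2G146847 and GRMZM2G328094 had normal means of 7.59, 6.84, 5.99 and 6.24 TPM and kept 7.30%, 6.48%, 6.74% and 8.47%. A gene just above the floor of 5 TPM can keep a larger share and still be under 1 TPM, so these shares follow in part from the thresholds.

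The remaining 3 of the low group had the fewest reads in ded1-ref among these 10. GRMZM2G010909 stood at 6.90, 6.46, 5.78 and 5.21 TPM over normal pools 1 to 4, against 0.0410, 0, 0 and 0.210 TPM in ded1-ref. GRMZM5G832135 stood at 7.90, 6.93, 6.78 and 6.51 TPM over the normal pools, against 0, 0.256, 0.103 and 0.0898 TPM in ded1-ref. Each had 5 reads over the 4 ded1-ref libraries (exact Poisson 95% interval 1.62 to 11.7 reads, which covers counting error only), against 349 and 237 reads in the normal libraries. GRMZM2G180950 had 11 reads in ded1-ref, all in replicates 2 and 4, and 192 reads in the normal libraries, the fewest of the 21.

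None of the 21 genes was listed at 0 in all 4 ded1-ref libraries, so the data show very low transcript in ded1-ref rather than none. Of the 84 values in ded1-ref, 10 were 0, and they belonged to 8 genes. Replicate 3 held 6 of the zeros, replicate 1 held 3, replicate 2 held 1 and replicate 4 none. Replicate 3 was the shallowest of the ded1-ref libraries, with 13924952 reads, and replicate 1 was the deepest, with 20725033. Replicate 4, which had no zeros, held 16137250 reads. Size factors, which follow the median transcript row rather than the total, were 1.00, 1.19, 0.606 and 0.906 in ded1-ref replicates 1 to 4. By them replicate 2 was the deepest and replicate 3 the shallowest. The part of depth in the zeros was not tested. Summed over the 21 genes, the libraries labelled ded1-ref held 9.18, 8.71, 4.39 and 7.96 TPM in replicates 1 to 4, against 315, 425, 305 and 276 TPM in normal.

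**Figure D2:**
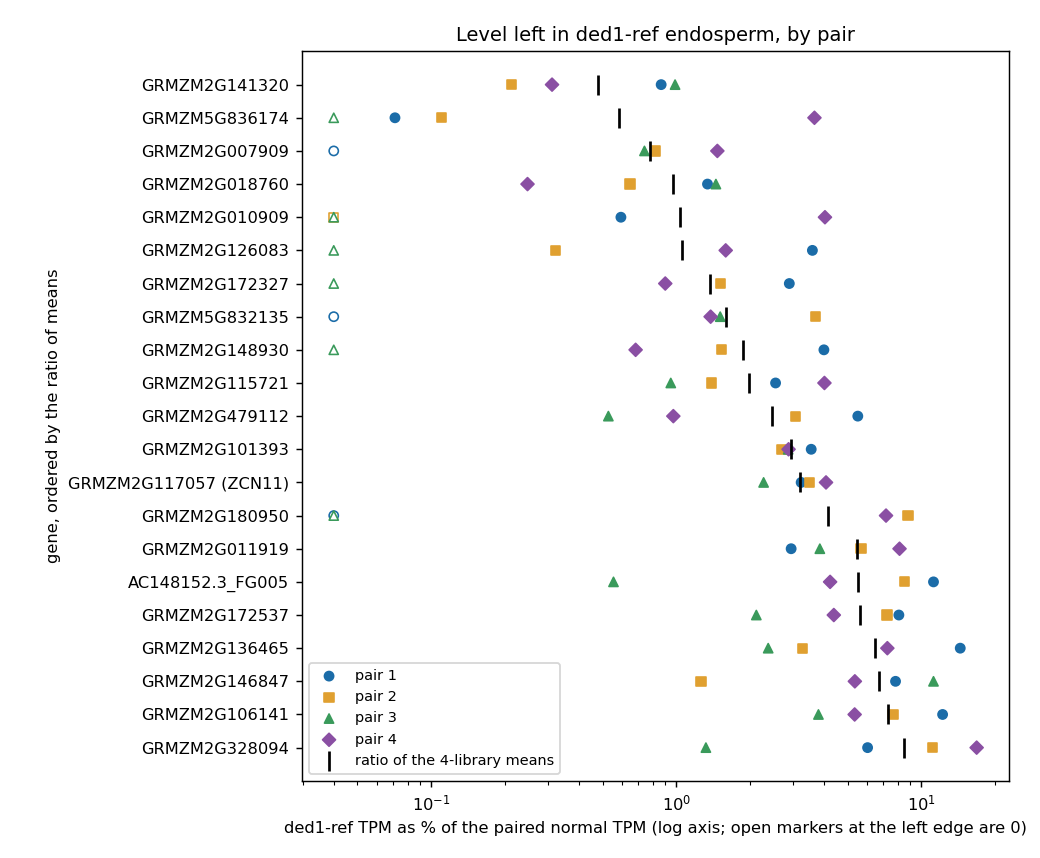
Level of each of the 21 genes in ded1-ref as a percent of the normal sibling pool of the same pair (log axis), 1 colour and shape per pair, with black bars for the ratio of the 4-library means. The shares of GRMZM2G101393 and ZCN11 lie close together in all 4 pairs, while in GRMZM5G836174 the fourth pair stands at 3.66% and the others between 0% and 0.110%.

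Pairs differed in the level left. Over the 21 genes its median was 3.23%, 2.70%, 0.988% and 4.02% in pairs 1 to 4. Within pair 1 the shares reached 14.4% (GRMZM2G136465), within pair 4 they reached 16.8% (GRMZM2G328094), and within pairs 2 and 3 they reached 11.1% and 11.2%. Some genes ran against the order of the pairs: GRMZM2G146847 kept its largest share, 11.2%, in pair 3, where AC148152.3_FG005 kept 0.554%.

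The libraries in which the 21 genes were highest or lowest were in part those in which other expressed genes were highest or lowest. In normal endosperm 11 of the 21 (52.4%) were highest in replicate 2, as were 48.3% of the 7551 expressed genes. In the same libraries 9 of the 21 (42.9%) were lowest in replicate 4, against 21.3% of expressed genes, and 7 (33.3%) in replicate 1, against 48.8%. Among the ded1-ref libraries 13 of the 21 (61.9%) were lowest in replicate 3, against 49.0%, while 7 (33.3%) were highest in replicate 1, against 7.12%. These shares are descriptions of 4 libraries per group, and in ded1-ref they rest on few reads per gene.

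The spread among normal libraries was wider for some of the 21 genes than for expressed genes in general. The coefficient of variation over the 4 normal libraries (SD as a percent of the mean) had a median of 17.3% over the 21 genes and ran from 6.87% for GRMZM2G106141 to 75.9% for GRMZM5G836174. Over the 5662 expressed genes in the same range of normal means the median was 14.6%. Counting error alone would give a median of 7.13% for the 21. GRMZM2G141320, GRMZM2G126083, GRMZM2G148930 and GRMZM2G011919 were the next most variable, at 53.0%, 38.7%, 33.5% and 33.0%.

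Because all 8 libraries entered the choice, each pair was also left out of it in turn and then read. With yuc, tcrr-1 and GRMZM2G401328 again left out, the same thresholds on the 3 other pairs chose 28 genes without pair 1, 33 without pair 2, 28 without pair 3 and 37 without pair 4. GRMZM2G401328 met the thresholds in pairs 1 to 3, so it would otherwise have been chosen without pair 4. Every one of these genes was lower in ded1-ref than in normal in the pair left out. Being lower is common on this scale: by the 4-library means only 412 of the 7551 expressed genes were higher in ded1-ref. Of the chosen genes with at least 5 TPM in the left-out normal library, those under 1 TPM in the left-out ded1-ref library were 21 of 23 in pair 1 (91.3%, against 1.89% of all genes with at least 5 TPM in that normal library), 21 of 32 in pair 2 (65.6%, against 1.43%), 21 of 22 in pair 3 (95.5%, against 3.0%) and 21 of 33 in pair 4 (63.6%, against 1.47%). The 21 in each case are the genes described here, since a gene that meets the thresholds in all 4 pairs is one of them. Only the number set against the 21 could thus differ between pairs. The 4 shares describe the choice and are not separate tests of it. The median level left in the left-out pair was 3.20%, 4.63%, 1.23% and 4.24%, against medians of 55.9%, 63.6%, 46.3% and 58.0% over all genes with at least 5 TPM in that normal library.

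**Figure D3:**
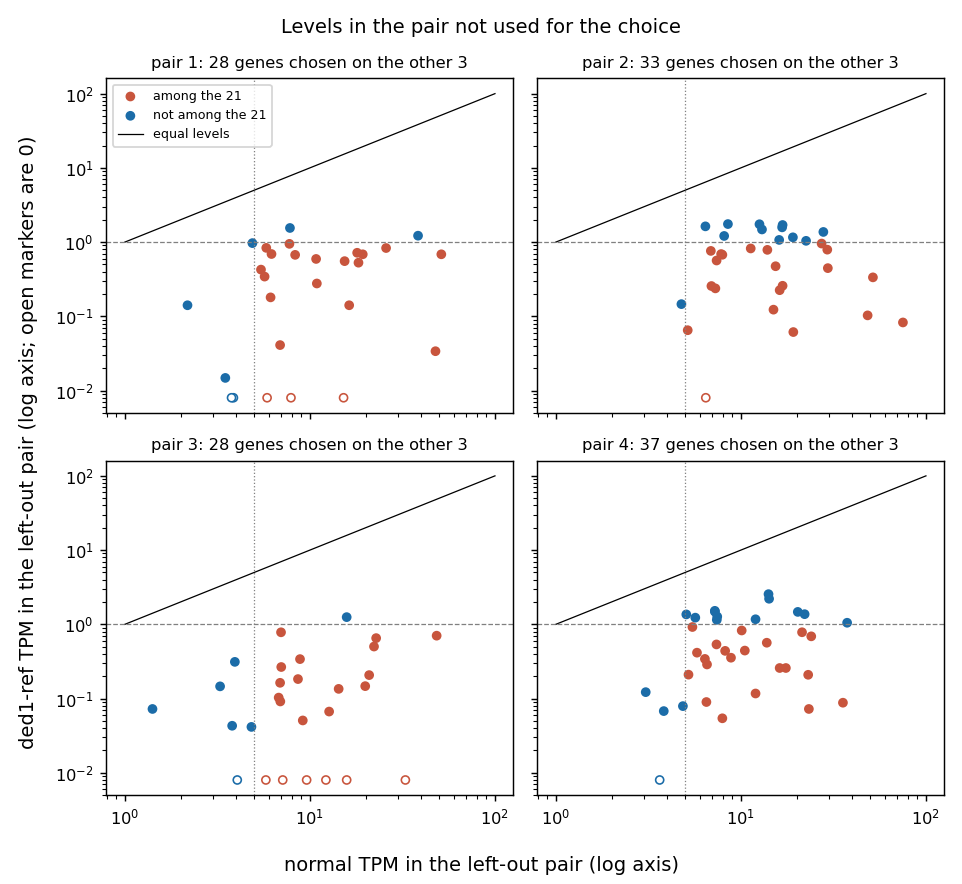
Levels in the pair that was left out of the choice, in normal (horizontal, TPM, log axis) and ded1-ref (vertical, TPM, log axis), for the 28, 33, 28 and 37 genes chosen on the other 3 pairs. Red points are the 21 genes, blue points the genes that missed a threshold in that pair, and all points lie below the line of equal levels. Most expressed genes were also lower in ded1-ref on this scale.

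The thresholds cut through a continuous range of genes. Just inside the ceiling of 1 TPM lay ZCN11, GRMZM2G106141 and GRMZM2G328094, whose highest ded1-ref values were 0.956, 0.947 and 0.920 TPM. Just outside it lay GRMZM2G475263, GRMZM2G076345 and GRMZM2G136771, with 1.04, 1.05 and 1.07 TPM. At the floor of 5 TPM, GRMZM2G146847 and GRMZM2G010909 were inside with lowest normal values of 5.16 and 5.21 TPM, and GRMZM2G342895, GRMZM5G851655 and GRMZM2G372068 were outside with 4.89, 4.86 and 4.83 TPM.

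The ceiling also leaves out genes that lost as large a share from a higher level. Among the 7551 expressed genes, 65 kept no more than 8.47% of their normal level, the highest share among the 21, and 44 of them are not among the 21. Of these 44, 11 kept no more than the median share of the 21, and yuc alone kept less than GRMZM2G141320. GRMZM2G334631, singled out after its values were seen, stood at 442, 505, 521 and 323 TPM over normal pools 1 to 4, against 1.66, 2.25, 0 and 6.61 TPM in ded1-ref, a level left of 0.587%. fl3, a floury kernel gene of the endosperm, kept 3.07% of 5794 TPM, and sfp5 kept 2.88% of 39.9 TPM.

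**Figure D4:**
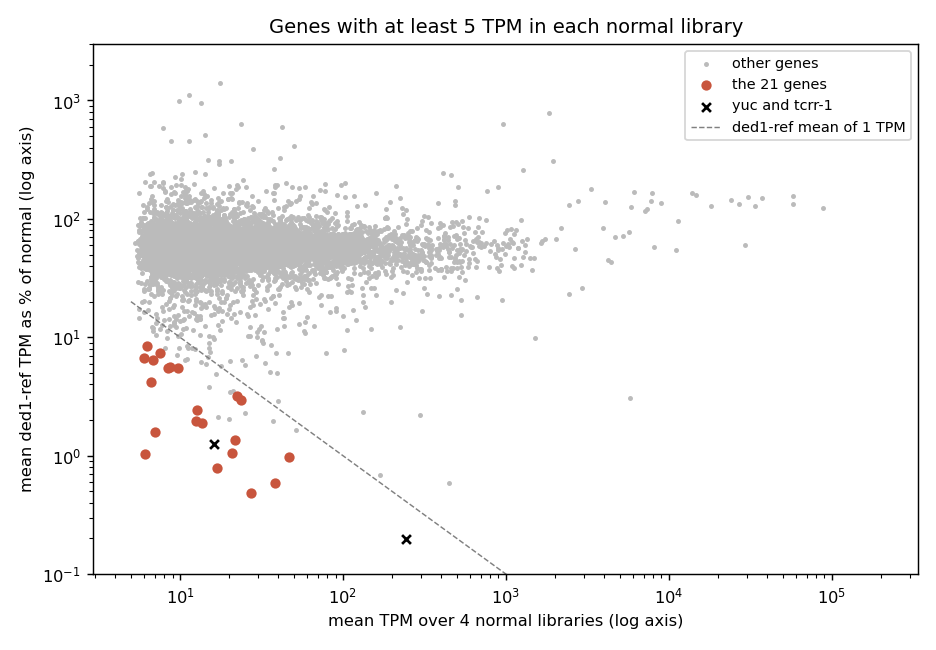
Mean ded1-ref level as a percent of the normal mean (vertical, log axis) against the normal mean in TPM (horizontal, log axis) for the 7551 genes with at least 5 TPM in each normal library. The 21 genes (red) lie between 0.481% and 8.47%, below the dashed line of a ded1-ref mean of 1 TPM, and yuc and tcrr-1 are marked with crosses.

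The genes next to the 21 along the chromosomes were read as well. In the gene order of the B73 reference, 12 of the 21 could be placed and had 24 nearest matched neighbours, none of which is among the 21. The W22 order was not used here. On the TPM test 9 of 15 tested neighbours were lower, against 69.8% of all tested genes, with a median log2 change of -0.63 against -0.68. Of the 15, 3 fell and 1 rose on both the TPM and the scaled test (20% fell, against 10.6% of all tested genes, while 3.53% of all tested genes rose on both tests), and their median change after scaling was 0.14 log2 units. The closest pair among the 21, GRMZM2G018760 and GRMZM2G101393, lay 17 matched genes apart.

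The neighbours that fell flank GRMZM2G172537 and GRMZM2G479112, and all 3 were under 1 TPM in at least 2 of the 4 ded1-ref libraries. Each thus reached the level for a test only with its normal libraries, and the share of neighbours that fell rests on these 3 genes. GRMZM2G042253 stood at 4.96, 5.20, 5.85 and 7.74 TPM over normal pools 1 to 4, against 2.10, 1.23, 0.251 and 0.961 TPM in ded1-ref (log2 change -1.21 after scaling). GRMZM2G110913, on the other side of GRMZM2G172537, stood at 2.01 ± 0.511 and 0.232 ± 0.144 TPM (SD, n = 4). ARGOS6 (GRMZM2G162250), of a family known for control of organ size, lies beside GRMZM2G479112 and fell from 6.14 ± 1.38 to 0.777 ± 0.505 TPM (-1.55 after scaling). The neighbour counted as higher was GRMZM2G006424, beside GRMZM2G106141, with 0.135 ± 0.0746 TPM in normal and 2.44 ± 0.837 TPM in ded1-ref. GRMZM2G110913 and GRMZM2G006424 each reached 1 TPM in libraries of 1 genotype only, which fixed the direction a call on them could take. GRMZM2G042253 and ARGOS6 reached it in 4 normal but only 2 ded1-ref libraries, which favoured a fall. The p-values of these genes are therefore not given. The libraries do not mark strand, so reads of overlapping neighbours cannot be told apart. The gene next to ZCN11 in this order, the delta zein gene dzs18, stood at 8114 ± 2140 and 4683 ± 2264 TPM (SD, n = 4) (-0.02 after scaling) and did not pass.

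Facts of the whole series that bear on the 21 genes are brief. The targeted gene ded1 (GRMZM2G121570) was present in all libraries, at 37.0 to 42.0 TPM in normal and 67.3 to 101 TPM in ded1-ref, and how the ded1-ref lesion affects its transcript is not stated. Marker lists of other kernel parts moved with the groups in part. Over all tested genes 10.6% fell and 3.53% rose on both scales. Of 14 basal transfer layer names 9 matched, and 5 of 5 tested genes fell on both scales. The list's summed level ran from 482 to 1201 TPM in normal and from 151 to 292 TPM in ded1-ref, and betl1 was at 0 in all libraries. The list of the endosperm next to the scutellum had 1 match, ZCN11 itself. Of the aleurone list (11 names, 10 matched) 3 of 6 tested genes passed as higher, but 2 of them, a2 and bz2, reached 1 TPM in ded1-ref libraries only, which fixed their direction. Of the embryo list 1 of 4 tested genes rose. The sums of these lists were 22.6 to 27.9 and 298 to 528 TPM in normal against 14.9 to 43.5 and 243 to 460 TPM in ded1-ref, and wox5B was at 0 in all libraries. None of 3 tested embryo-surrounding region genes and 1 of 14 tested starchy endosperm genes (fl2, which rose) passed on both scales. No maternal tissue marker reached the level for a test. Fewer cells of a type and less RNA per cell cannot be told apart in bulk tissue, and the part of cell makeup in the levels of the 21 genes was not tested.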

How the data were processed

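RNA of 8 endosperm libraries, 4 normal and 4 ded1-ref, was sequenced. Per the labels' protocols the libraries do not mark strand, and the tools listed in the submitters' processing notes are GSNAP, cutadapt 1.1 and Trimmomatic 0.22. For the read counter and genome build the sources used here give no name. The authors deposited TPM for 63293 transcript rows. In a second table the authors deposited a mean normalized signal, log2 fold changes, their log2 standard errors, a test score whose sign is opposite to the fold, and p-values. From this table the fold and its error are quoted in the closing section, and the mean signal was used to recover reads; with TPM it gave whole reads, within 0.05 reads, for 100% of 236228 values above 0.

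Rows were summed to 39423 genes, and a RefSeq gene table (assembly Zm-B73-REFERENCE-NAM-5.0), from which only names and gene order were taken, matched 18771 of them. The 13671 genes that reached 1 TPM in 4 or more libraries were tested with limma 3.58.1 in R 4.3.3 (limma-trend on log2(TPM + 1), replicate number as a block, Benjamini-Hochberg adjustment at 0.05), and again after median-of-ratios scaling of the TPM. P-values weigh the mean difference within pairs against how that difference varies over these pairs. In limma the estimate of that variation also draws on the other genes. A fold on this scale understates the change of low genes. A gene rose or fell only where both tests passed. The block follows the stated pairing; deviations of same-numbered libraries from their group means correlated at 0.115, 0.333, 0.309 and 0.149. The plan named genes with an informative name and the 12 of highest normal mean, and the text accounts for all 21. The members and lists were chosen with earlier results of these data known. The planned comparison with closest relatives and the promoter motifs were not run, because no protein or promoter sequences were used here. Neighbours and the ZCN list were added after the data were seen. Alternatives were other scalings, another pseudocount, no filter, no block, limma-voom on recovered reads, each replicate left out, and other thresholds.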

Additional observations from a re-analysis of the deposited data

Results flagged for a closer look

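The level of GRMZM5G836174 in ded1-ref replicate 4 stood apart from the other ded1-ref libraries. It was 0.782 TPM there and from 0 to 0.0827 TPM in the other 3, so that its gap to the nearest library was 0.894 of the whole range of the group. It was the only such value among 42 sets of 4 libraries (21 genes in 2 genotypes). For values with a bell-shaped spread, chance gives about 1 such value in every 20 sets. That rate need not hold for levels that rest on few reads, here 18 of 21 reads in replicate 4. Whether chance gave this value was not tested.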

How the results depend on the processing

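The number of genes that meet the thresholds depends on the scale and on the thresholds. After median-of-ratios scaling it was 6, all of them among the 21 (GRMZM2G007909, GRMZM2G115721, GRMZM2G126083, GRMZM2G141320, GRMZM2G172327 and GRMZM2G479112); this scaling raises ded1-ref values and lowers normal ones. It was 8 with a floor of 10 TPM, 5 with a ceiling of 0.5 TPM, 79 with a ceiling of 2 TPM and 22 on transcript rows, where GRMZM2G475263 was added. It ran from 28 to 37 with 1 replicate left out, with 33 without replicate 2 and 37 without replicate 4. Fewer libraries then have to pass, and the genes left out by name, GRMZM2G401328 among them, are not counted. Over all tested genes the TPM scale gave 482 higher and 9539 lower. The counts were 1687 and 1444 after median-of-ratios scaling and 1593 and 1485 after upper quartile scaling, so that 53.9% were higher after the first scaling against 4.81% on TPM. They ran from 359 to 539 higher and from 7963 to 9240 lower with 1 replicate left out. Without the replicate block they were 402 and 8842, and the neighbours that fell remained 3 in number, also with each replicate left out. The counts of calls moved by less than 1.5 times with the other pseudocount, no filter and limma-voom. Levels in ded1-ref rest on 5 to 125 reads per gene, and 3 reads were worth up to 0.355 TPM for the 21 genes.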

Other observations

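The authors' deposited table gives a negative log2 fold for the leading transcript row of all 21 genes, from -5.99 for GRMZM2G141320 to -2.57 for GRMZM2G328094, with standard errors from 0.21 to 0.63. For all 21 these folds lie nearer to 0 than the log2 ratio of the mean TPM, by 0.96 to 4.69 (median 1.34), and by 0.10 to 3.92 (median 0.45) after scaling. The gap after scaling was over 1 in 4 genes: GRMZM5G836174, GRMZM2G148930, GRMZM2G010909 and GRMZM5G832135. For GRMZM5G836174 the authors' deposited table gives -2.73 ± 0.63 (SE), while the log2 ratio of the mean TPM was -7.42, or -6.65 after scaling. For GRMZM2G148930 the authors' deposited table gives -3.10 ± 0.59 (SE), against -5.74 and -4.89. These 2 carry the largest deposited standard errors of the 21. Their normal coefficients of variation were 75.9% and 33.5%, while GRMZM2G141320, at 53.0%, had a gap of 0.74 after scaling. For GRMZM2G101393, which has the smallest, the authors' deposited table gives -4.12 ± 0.21 (SE), against -5.08 and -4.22. How the deposited folds were made was not tested.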
